A study of Homo sapiens with 8 samples.

Results

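RNA polymerase II (RNAPII) occupancy was examined at 10 apoptosis genes of the BCL2 network, out of 19794 protein-coding genes annotated in GRCh37. The genes were chosen by name: MCL1, BCL2L1, BCL2, BCL2L2, BCL2L11, BBC3, PMAIP1, BAX, BAK1 and CFLAR. The data are RNAPII ChIP-seq peak lists from MDA-MB-453, an established human breast cancer cell line. Cells were exposed for 4 h to vehicle or to 600 nM CDDD11-8, a CDK9 inhibitor, and each group held 2 replicates from consecutive passages of this 1 line. Both groups carry the same genotype and were precipitated with the same RNAPII antibody (CTD4H8). Each ChIP library has a chromatin input of its own, and the 4 inputs entered only through the authors' peak calls.

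BCL2 family proteins decide whether the outer membrane of the mitochondrion stays closed. MCL1, BCL-XL (the product of BCL2L1), BCL2 and BCL-W (BCL2L2) hold the pore formers BAX and BAK1 in check, whereas the BH3-only proteins BIM (BCL2L11), PUMA (BBC3) and NOXA (PMAIP1) release them. CFLAR encodes FLIP, which blocks caspase-8 at death receptors. MCL1 mRNA and protein turn over fast, so the gene needs steady transcription, and CDK9 is the kinase that lets promoter-proximal RNAPII move into elongation.

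The peak lists give, for each summit, a pileup and a fold enrichment over the local background. Fold enrichment is scaled within a list, so its raw values are given to describe each library, and treatments were compared only by percentiles or ratios formed inside a library. The vehicle lists held 78306 and 57493 peaks and the CDDD11-8 lists 25897 and 21842, with median widths of 612, 660, 1169 and 1356 bp in the same order. Peak number and width therefore differed between treatments over the whole genome, and the members are given beside all genes for that reason. The labels give a minimum of 60000000 reads for each sample, and since read totals are not part of the lists the actual depth of the 4 libraries is unknown. Marker genes of the line (FOXA1, XBP1, SPDEF, ERBB2, KRT8, KRT18 and TFAP2B) each had a promoter peak in all 4 libraries, and none of 6 genes of other cell states or types had one in any library. With 2 against 2 libraries the exact two-sided permutation test cannot go below p = 0.33, so no comparison here could pass a threshold of 0.05. "Lower" or "higher" below means that both CDDD11-8 libraries lay on that side of both vehicle libraries, which is a description and not a significant difference.

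The stretches of GRCh37 reference sequence below show the promoters of 4 members whose RNAPII profiles differ in form, and the intronic position in BBC3 where its strongest summit lay. Each is written 5′ to 3′ on the gene's strand and stops before exonic sequence, apart from at most 30 bases. Capitals mark matches on either strand to the TATA box (TATAAA), the CCAAT box (CCAAT), the GC box (GGGCGG) or the E-box (CACGTG). MCL1 and BAX contrast a gene that stayed covered by RNAPII peaks with 1 whose body had fewer of them with CDDD11-8, whereas BAK1 and PMAIP1 held peaks mainly at the start.
MCL1, chr1:150552185-150552306, minus strand: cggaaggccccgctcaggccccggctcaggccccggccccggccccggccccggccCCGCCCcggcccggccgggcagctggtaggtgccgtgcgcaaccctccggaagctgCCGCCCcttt
BAX, chr19:49457912-49458101, plus strand: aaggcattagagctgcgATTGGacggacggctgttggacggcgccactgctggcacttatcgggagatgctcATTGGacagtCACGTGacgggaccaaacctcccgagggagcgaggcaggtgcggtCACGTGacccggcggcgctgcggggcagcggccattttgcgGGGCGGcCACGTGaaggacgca
BAK1, chr6:33548041-33548273, minus strand: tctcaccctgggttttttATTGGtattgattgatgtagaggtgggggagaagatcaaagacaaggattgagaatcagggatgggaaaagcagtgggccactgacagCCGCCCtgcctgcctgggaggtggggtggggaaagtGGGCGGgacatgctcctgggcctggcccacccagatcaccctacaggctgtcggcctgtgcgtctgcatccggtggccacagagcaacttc
PMAIP1, chr18:57567008-57567257, plus strand: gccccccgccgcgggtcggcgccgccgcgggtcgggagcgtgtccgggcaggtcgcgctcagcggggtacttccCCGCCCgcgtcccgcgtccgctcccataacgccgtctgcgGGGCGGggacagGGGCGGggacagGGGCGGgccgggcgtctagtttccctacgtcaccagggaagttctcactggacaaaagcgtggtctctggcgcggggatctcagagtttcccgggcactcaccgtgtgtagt
BBC3 intron, chr19:47729438-47729637, minus strand: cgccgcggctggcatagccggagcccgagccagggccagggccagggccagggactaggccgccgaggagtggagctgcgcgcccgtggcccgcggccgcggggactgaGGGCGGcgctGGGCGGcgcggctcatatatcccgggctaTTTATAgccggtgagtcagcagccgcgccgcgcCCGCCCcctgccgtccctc
Over the 250 bases from 220 before the canonical transcription start site (TSS), GGGCGG was found in 8 of the 10 members and in 58.9% of 20134 promoters. CCAAT was found in 3 members (BCL2L11, BAX and BAK1) and in 33.1% of promoters, and TATAAA in 0 members and 8.66% of promoters. CACGTG was found only in BAX among the members, 4 times, and in 7.92% of promoters. The BBC3 intronic stretch of 200 bases held 1 TATAAA and 3 GGGCGG matches, and the first 200 bases of the promoter windows held these motifs in 8.20% and 53.8% of genes. These matches describe the letters in the windows and do not show a bound factor.

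MCL1 encodes the short-lived antiapoptotic protein through which CDK9 inhibitors are often read. Its canonical isoform (MCL1-202) spans 5.05 kb at chr1:150547034-150552086 on the minus strand, and the longest coding isoform (MCL1-208) extends to 16.5 kb downstream of the same TSS. The lncRNA ENSG00000290074 starts on the opposite strand at −307 bp from that TSS. A peak region covered the TSS in every library. It was 24862 bp wide in vehicle replicate 1, 20154 bp in vehicle replicate 2, 41001 bp in CDDD11-8 replicate 1 and 38028 bp in CDDD11-8 replicate 2. The treated regions were both wider than the vehicle regions, with means of 22508 ± 3329 bp (SD, n = 2) and 39514.5 ± 2102 bp (SD, n = 2) and an exact permutation p of 0.33. The share of peaks in the same list that were wider was 0.20% and 0.34% with vehicle and 0.042% and 0.037% with CDDD11-8. By fold enrichment it lay at percentiles 97.4 and 90.9 of the promoter peaks with vehicle and 97.3 and 74.2 with CDDD11-8, and here the groups overlapped.

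The extra width lay downstream of the gene and not upstream. The region reached 20148 and 16244 bp past the TSS with vehicle and 36386 and 35081 bp with CDDD11-8, whereas its upstream reach of 4713, 3909, 4614 and 2946 bp overlapped between groups. Between 20 and 32 kb past the canonical transcription end site (TES), peaks covered 9.25% and 4.62% of bases with vehicle and 97.3% and 92.5% with CDDD11-8. Other transcripts lie between MCL1 and the end of the treated regions. The lncRNA ADAMTSL4-AS1 starts 12443 bp after the MCL1 TES on the same strand and ends before the 20 kb mark. Another lncRNA, ENSG00000289457, starts 13092 bp after the TES on the opposite strand. ADAMTSL4-AS2, which starts 16834 bp after the TES on that strand, and ADAMTSL4, AL356356.1 and MIR4257 on the opposite strand overlap the stretch between 20 and 32 kb. Peaks without strand do not assign RNAPII to a gene, so MCL1 read past its end and the neighbours' own RNAPII cannot be told apart. Counted only up to the ADAMTSL4-AS1 start, a limit chosen after the region was seen, the widths were 22209, 20154, 22110 and 20442 bp, and the groups overlapped.

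Because the canonical MCL1 gene body and the 5 kb after it were 100% covered in all 4 libraries, coverage could not differ, and the fold enrichment of the summits inside the region was read instead. The highest summit within 500 bp of the TSS lay 131 to 197 bp after it, in exon 1 of 3, in every library. Its fold enrichment was 7.71 and 14.7 with vehicle and 51.4 and 22.2 with CDDD11-8. Between 2 kb past the TSS and the TES the highest values were 6.09, 6.89, 14.8 and 10.3. In the first 3 kb after the TES they were 17.8 and 5.88 for vehicle, and 5.87 and 5.0 for CDDD11-8. Within the canonical gene the strongest summit was at the TSS in every library. From 2 kb past the TSS to the TES, values fell from summit to summit with CDDD11-8, from 14.8 to 7.82 and from 10.3 to 5.0. With vehicle they did not fall steadily. They were 4.99, 4.21, 4.56 and 6.09 in replicate 1, and 6.89, 4.16, 5.89 and 6.57 in replicate 2. In vehicle replicate 1 alone, summits stronger than that at the TSS lay past the TES, the highest at 17.8. Every summit from 472 to 6637 bp after the TES there exceeded the 7.71 at the TSS. That held for fold enrichment only. By pileup, vehicle replicate 1 reached 309 near the TSS and at most 116 from 1 kb past the TSS until 3 kb beyond the TES. The stretch 10 to 20 kb after the TES holds the starts of ADAMTSL4-AS1, ENSG00000289457 and ADAMTSL4-AS2. The highest fold enrichment there was 1.17 and 0.66 times that at the TSS of the same library with vehicle. With CDDD11-8 it was 0.52 and 0.78 times, and the groups overlapped.

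**Figure D1:**
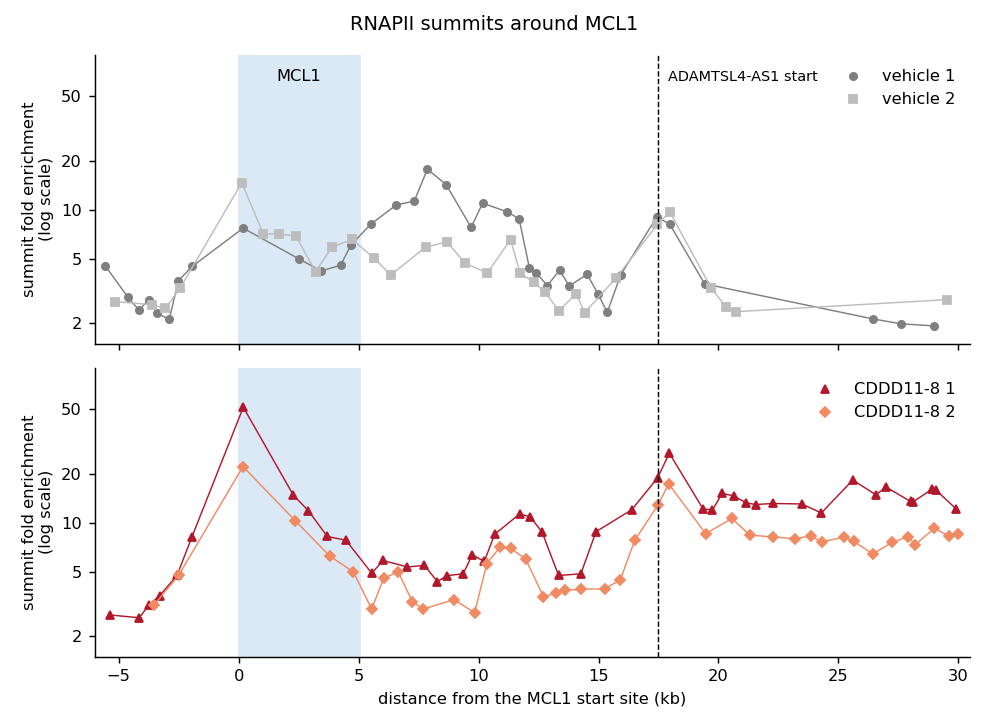
Fold enrichment of each RNAPII summit (log scale) against distance from the MCL1 TSS in kb, with the vehicle libraries above and the CDDD11-8 libraries below; points are summits, lines join the summits of 1 library, the shaded span is the canonical gene and the dashed line is the ADAMTSL4-AS1 start. The treated libraries are highest at the TSS, at 51.4 and 22.2, and reach no more than 5.87 in the first 3 kb after the gene.

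The promoter to downstream ratio puts this on 1 scale. It is the log2 ratio, within a library, of the highest summit fold enrichment within 500 bp of the TSS to the highest in the rest of the gene, taken from 1 kb past the TSS until 3 kb beyond the TES. With the canonical isoform it was −1.20 and 1.05 with vehicle and 1.80 and 1.11 with CDDD11-8, a difference of 1.53 with an exact permutation p of 0.33. The vehicle replicates differed from each other by more than this difference, and the gap between vehicle replicate 2 and CDDD11-8 replicate 2 was small. With the longest isoform the downstream window takes in the starts of ADAMTSL4-AS1 and ENSG00000289457. The values were then −1.20, 0.60, 0.94 and 0.35, and the groups overlapped. The difference was 0.95 (exact permutation p = 0.67). With pileup in place of fold enrichment the difference was −0.00108 on the log2 scale for the longest isoform and 0.86 for the canonical one. Without vehicle replicate 1 the longest isoform difference was 0.05, so that library decides its size.

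With the longest isoform, gene body and post-TES coverage over the 4 libraries were compared with those of MCL1 in 6729 genes of like length. The closest were BRD2, MIDN, HNRNPF, DDX39B and NHERF2, with mean absolute differences of 3.89 to 4.53 percentage points over 8 values. These gene bodies were between 90.3% and 100% covered in every library. MIDN had promoter peaks of 19180, 38393, 43445 and 41207 bp, and those of NHERF2 were 17440, 17072, 9450 and 7159 bp. High coverage in both treatments thus occurred both with wider and with narrower treated regions. The named genes depended on the isoform. With the canonical isoform, 119 of 4385 genes of like length had the same 100% coverage as MCL1 in every value. Ties were broken by the promoter to downstream ratio, which put SLC25A1, TMEM115, SERF2, ELOB and SYVN1 first.

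BCL2L1 encodes BCL-XL, an antiapoptotic protein more stable than MCL1, from 58.4 kb at chr20:30252261-30310671 on the minus strand. Its gene body, which for each gene began 300 bp past the TSS of the longest isoform and ended 3 kb beyond the TES, was inside peaks over 91.3% of bases in vehicle replicate 1, 76.5% in vehicle replicate 2, 37% in CDDD11-8 replicate 1 and 19.3% in CDDD11-8 replicate 2. The groups did not overlap, with means of 83.9 ± 10.5% and 28.2 ± 12.5% (SD, n = 2 each) and an exact permutation p of 0.33. The groups differed in the interior of the gene. From 20 to 40 kb after the canonical TSS coverage was 85.7% and 66.5% with vehicle and 0% in both treated libraries, whereas the first 2 kb were covered completely in all 4.

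The BCL2L1 promoter peak had a fold enrichment of 8.79, 6.70, 38.2 and 25.8. Its percentile among promoter peaks of the same list was 77.9 and 38.3 with vehicle and 84.7 and 84.9 with CDDD11-8. Among all peaks of the list the percentiles were 96.4, 87.2, 94.2 and 93.3, and there the groups overlapped. BCL2L1 was the only member whose percentile among promoter peaks was higher with CDDD11-8, where 25.7% of 9603 genes were. With the canonical isoform the promoter to downstream ratio was 0.34 and 0.04 with vehicle and 1.63 and 1.46 with CDDD11-8. The 5 kb after the TES did not separate the groups, at 100%, 83.4%, 93.4% and 65.8%. BCL2L1-AS1 and ABALON overlap the gene on the opposite strand, and RNAPII on them cannot be told apart from that on BCL2L1.

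BCL2, the founding antiapoptotic member, spans 196 kb at chr18:60790579-60987002 on the minus strand. No peak was found at its promoter, in its gene body or in the 5 kb after it in any library. A weak peak lay upstream in each library, with summits between −1569 and −1111 bp from the canonical TSS and highest fold enrichments of 2.19, 3.34, 3.01 and 2.56. With unknown depth, RNAPII on BCL2 was not detectable in these lists, which does not show that it is absent.

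BCL2L2 encodes BCL-W and shares its TSS with the readthrough gene BCL2L2-PABPN1, at chr14:23776042-23780960 on the plus strand. In the 5 kb after its TES, peaks covered 75.9% and 54.1% of bases with vehicle and 0% and 2.28% with CDDD11-8. These groups were far apart, at 65.0 ± 15.4% and 1.14 ± 1.61% (SD, n = 2 each, exact permutation p = 0.33), and this stretch lies inside the readthrough gene. With each list limited to its strongest 21842 peaks the values were 54.2%, 0%, 0% and 2.28%, and the groups overlapped. Gene body coverage of 77.1%, 78.4%, 75.2% and 58.0%, with the longest isoform, was lower with CDDD11-8 by a small margin in replicate 1. With the canonical isoform it was 77.8%, 75.6%, 60.3% and 38.6%. From 300 bp after the TSS of the longest isoform to the TES the difference was 8.46 percentage points in the other direction. The lower value of that isoform thus came from the 3 kb after the TES. The ratio depended on the isoform. From the canonical TSS it was 0.11 and 1.42 with vehicle and 2.20 and 2.33 with CDDD11-8, and from the longest isoform, which starts 4537 bp upstream, it was −0.03, 0.12, −0.94 and −0.10. PPP1R3E starts on the opposite strand at −3974 bp from the canonical TSS, inside the longest isoform.

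Among the BH3-only genes, BCL2L11 encodes BIM and spans 47.5 kb at chr2:111878491-111926021 on the plus strand. Its promoter peak was 3381 and 3585 bp wide with vehicle and 6079 and 5025 bp with CDDD11-8. The treated peaks were wider in both directions, reaching 3769 and 3243 bp downstream against 2394 and 2478 bp, and 2309 and 1781 bp upstream against 986 and 1106 bp. From 2 to 5 kb after the TSS coverage was 13.2%, 16%, 59.0% and 41.5%. In CDDD11-8 replicate 2 the strongest summit lay 1513 bp after the canonical TSS, 149 bp from the start of isoform BCL2L11-203, whereas in the other libraries it lay within 134 bp of the canonical TSS. Gene body coverage was low throughout, at 7.22%, 6.69%, 6.91% and 5.86%, and overlapped between groups. Both vehicle libraries had peaks after the TES, covering 21.5% and 23.7% of 5 kb, and both treated libraries had 0%. With each list limited to its strongest 21842 peaks this coverage was 0% in all 4 libraries. The lncRNA MIR4435-2HG spans BCL2L11 and the stretch after it on the opposite strand. RNAPII on it cannot be told apart from that on BCL2L11.

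BBC3 encodes PUMA, a p53 target, at chr19:47724081-47734456 on the minus strand. Its strongest summit was not at an annotated TSS. It lay in an intron 4912, 4857, 4929 and 4924 bp after the canonical TSS, with fold enrichments of 10.6, 17.4, 35.9 and 12.7, and its position differed by at most 72 bp among the 4 libraries. The nearest annotated start of any transcript, that of MIR3191 on the opposite strand, was 600 to 672 bp away. The 200 bases printed above for BBC3 are centred on this position. At the canonical TSS the highest fold enrichment within 500 bp was 3.39, 4.84, 8.15 and 3.10, and the promoter to downstream ratio was −1.64 and −1.84 with vehicle and −2.14 and −2.03 with CDDD11-8. BBC3 was thus the only member with a canonical ratio below 0 in all 4 libraries, and both treated values were slightly lower. Its longest isoform starts 1567 bp upstream and had a promoter peak only in vehicle replicate 2. From 1 to 2 kb after the canonical TSS coverage was 77.1% and 75.6% with vehicle and 29.9% and 3.30% with CDDD11-8, and gene body coverage overlapped between groups.

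PMAIP1, which encodes NOXA, the partner that targets MCL1, spans 4.31 kb at chr18:57567228-57571537 on the plus strand and lies 202572 bp from the nearest coding gene. It had no summit further than 1 kb after the TSS and no coverage in the 5 kb after the TES in any library. The promoter peak was 1776 and 2270 bp wide with vehicle and 2663 and 2578 bp with CDDD11-8. Since this peak supplied all of its gene body coverage, that coverage was higher with CDDD11-8, at 10.8%, 12.1%, 14.8% and 14.9%. Its fold enrichment was 5.53, 8.41, 16.7 and 7.0 in the 4 libraries. The percentile among promoter peaks was lower with CDDD11-8, at 47.9, 56.2, 31.9 and 15.9.

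BAX, a pore former of the mitochondrial outer membrane, spans 6.92 kb at chr19:49458132-49465055 on the plus strand. Its gene body was 89.5% and 90.8% covered with vehicle and 54.2% and 34.7% covered with CDDD11-8. The groups were separated by more than the spread within either, at 90.2 ± 0.91% and 44.5 ± 13.8% (SD, n = 2 each, exact permutation p = 0.33). From 2 to 5 kb after the TSS coverage was 78.0%, 93.2%, 23.7% and 0%. The width of the promoter peak, at 3979, 3553, 4416 and 3574 bp, overlapped between groups. The promoter to downstream ratio was −0.44 and 0.79 with vehicle and 1.85 and 2.03 with CDDD11-8, a difference of 1.76 (exact permutation p = 0.33), and with pileup it was 1.03. Of the 5 kb after the BAX TES, 93.1%, 90.8%, 87.2% and 76.0% was covered. FTL, which encodes ferritin light chain, starts 3511 bp after that TES on the same strand and lies in the window. The lncRNA ENSG00000267898 starts 2177 bp after the TES on that strand. Its start lies inside the 3 kb that the gene body and the ratio also take in. In CDDD11-8 replicate 1 the highest downstream summit, at 6.59, lay 2194 bp after the TES. RNAPII on these neighbours cannot be told apart from that on BAX.

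BAK1, the other pore former, spans 7.73 kb at chr6:33540329-33548053 on the minus strand. Its promoter peak was 2456 and 1461 bp wide with vehicle and 3092 and 2725 bp with CDDD11-8. The ratio was 0.20 and 0.71 with vehicle and 1.22 and 1.49 with CDDD11-8, a difference of 0.89 (exact permutation p = 0.33). The 5 kb after the TES was 32.1% and 31.1% covered with vehicle and 21.9% and 16.4% with CDDD11-8. GGNBP1, a transcribed pseudogene on the opposite strand, spans BAK1 and this stretch. RNAPII on it cannot be told apart from that on BAK1. Gene body coverage of 32.6%, 23.2%, 25.9% and 21.0% overlapped between groups. BAX and BAK1 thus both had a higher ratio, and BAX alone had a lower gene body coverage.

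CFLAR, a brake on death receptor signalling, spans 60.5 kb at chr2:201980887-202041410 on the plus strand. Its promoter peak was 3829 and 4225 bp wide with vehicle and 6040 and 5037 bp with CDDD11-8, and its fold enrichment was 4.49, 5.96, 16.7 and 13.6. For vehicle replicate 1 the strongest summit lay in exon 10 of 10, 57239 bp after the TSS, whereas in the other libraries it lay 398, 2642 and 654 bp after it. Gene body coverage was small in all libraries, at 8.84% and 7.31% with vehicle and 6.12% and 5.18% with CDDD11-8. The difference came from short peaks far from the TSS. From 40 to 60 kb coverage was 8.19% and 7.0% with vehicle and 0% in both treated libraries, and outside the promoter region no peak was found in the gene with CDDD11-8. When each list was limited to its strongest 21842 peaks, the CFLAR difference in gene body coverage turned to 0.19 percentage points higher.

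**Figure D2:**
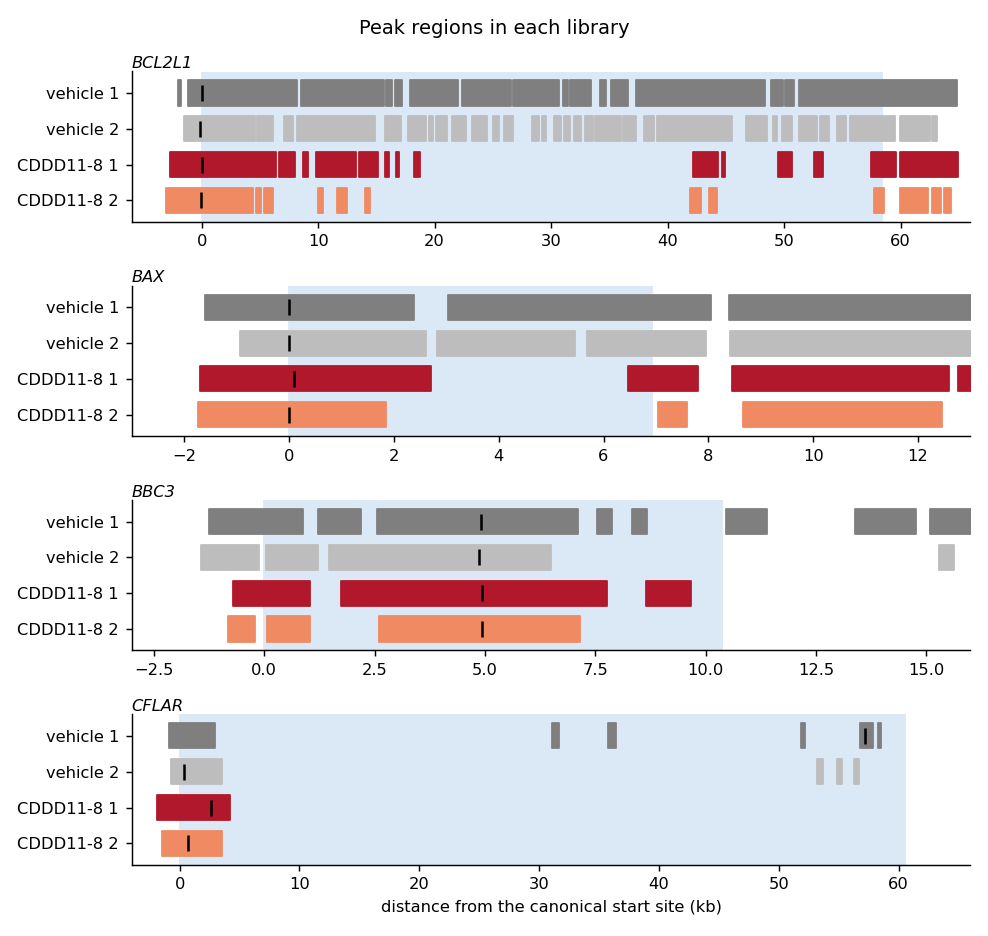
Peak regions of each library (bars) against distance from the canonical TSS in kb for BCL2L1, BAX, BBC3 and CFLAR; shading is the canonical gene and each black tick is the strongest summit from 1 kb before the TSS to the TES. Treated libraries lack peaks from 20 to 40 kb in BCL2L1 and have 23.7% and 0% coverage from 2 to 5 kb in BAX, and the BBC3 ticks line up 4857 to 4929 bp after the TSS.

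Counted together, 4 of the 10 members had lower gene body coverage with CDDD11-8 (BCL2L1, BCL2L2, BAX and CFLAR) and 1 had higher coverage (PMAIP1). Of the 9603 protein-coding genes of at least 1 kb with a promoter peak in all 4 libraries, 45.3% were lower and 21.5% were higher, and of the 8 members among them the same 4 were lower and PMAIP1 was higher. The median difference was −3.45 percentage points over the members and −2.11 over all genes. In the 5 kb after the TES, 5 members were lower (BCL2L2, BCL2L11, BBC3, BAX and BAK1), beside 42.6% of all genes. Only MCL1 was higher there, beside 5.01% of all genes, and that was with the longest isoform, since the window was full in every library with the canonical one. The longest MCL1 isoform's window takes in the starts of ADAMTSL4-AS1 and ENSG00000289457. RNAPII on them cannot be told apart from that on MCL1. The BBC3 values in the 5 kb after its TES were 51.9% and 1.72% with vehicle and 0% in both treated libraries. With the longest isoform BBC3 was not among the 9603 genes.

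A wider promoter peak was found in 5 of the 8 members with such a peak in all 4 libraries (MCL1, BCL2L11, PMAIP1, BAK1 and CFLAR) and a narrower one in 0, beside 64.5% and 9.41% of all genes. The median width difference was 1231 bp over these 8 members and 1214 bp over all genes. With peaks within 1 kb of each other merged, the mean width difference went from 467.5 to −33189 bp for BCL2L1, from 229 to −14255.5 bp for BAX and from 3224 to −709 bp for BCL2L2. In percentile of promoter fold enrichment, 1 of 8 members was higher (BCL2L1) and 2 were lower (PMAIP1 and BAK1), where 21.3% of all genes were lower. The median change was −7.94 percentile points over the members and 1.34 over all genes. The promoter to downstream ratio of the longest isoform had a value in all 4 libraries for 5 members, of which 2 were higher (BAX and BAK1) and 1 was lower (BCL2L2), beside 69.4% and 5.15% of 5939 genes. With the canonical isoform 5 of 7 members were higher (MCL1, BCL2L1, BCL2L2, BAX and BAK1), beside 72.6% of 6333 genes, and BBC3 was lower. These shares were not tested against genes in general. Among the 10 genes themselves, gene body coverage ranged from 0% for BCL2 to 100% for MCL1 in the same library.

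Beyond the 10 members, 43 other genes of the apoptosis machinery were measured, of which 29 had a promoter peak in all 4 libraries. Gene body coverage was lower with CDDD11-8 in 18 of the 43, higher in 6 and neither in 19, and among the 29 it was lower in 17 and higher in 3, beside the 45.3% and 21.5% of all genes given above. By list it was lower in 5 of 14 other BCL2 family genes, 7 of 9 genes of the apoptosome and the inhibitors of apoptosis, 2 of 7 caspases, 2 of 8 death receptors and adaptors, and 2 of 5 genes of MCL1 protein turnover. Of the 18, CASP2, which encodes caspase-2, had the largest difference, with 67.0% and 56.1% for vehicle and 11% and 10.2% for CDDD11-8. CYCS, which encodes cytochrome c, followed with 77.0%, 65.7%, 30.2% and 25.5%. In BIRC5, which encodes survivin, coverage was 71.2%, 33.4%, 16.2% and 15.5%, and the vehicle replicates were far apart. The differences in the other direction were small. TNFRSF10A, a TRAIL receptor, had 5.77%, 4.01%, 6.45% and 6.78%, and CASP9 had 0%, 0.44%, 2.02% and 1.46%. Both had a promoter peak that was wider in both treated libraries than in any vehicle library that had one, and CASP9 had none in vehicle replicate 1.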

How the data were processed

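RNAPII was profiled by ChIP-seq in MDA-MB-453 cells given vehicle or 600 nM CDDD11-8 for 4 h, in 2 replicates each. The authors mapped the reads to GRCh37 with Bowtie2 and called peaks per sample with MACS2 against the matching input, without pooling. The deposited pileup is a signal of overlapping fragments, the deposited fold enrichment is a ratio of it to local background, and the deposited p-value and q-value are on the −log10 scale. The labels give a minimum of 60000000 reads per sample. The lists give no read totals, so actual depth is unknown and no interval could be formed. Longer or fewer peaks in a list can follow depth and scaling as well as RNAPII.

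Summits of 1 region were joined into 1 peak. Genes came from GENCODE release 44 mapped to GRCh37, with the longest coding isoform (main) or the canonical one. Promoters extended 300 bp either side of the TSS, and gene bodies began 300 bp past the TSS and ended 3 kb beyond the TES. Each library gave 1 value, and groups were compared with an exact permutation test (two-sided) with no adjustment, since none could pass. No p-value over the members was computed. The 10 members and the other gene lists were chosen with earlier results of these data known, and all 10 were named. Of the other 43 genes, the 3 with the largest fall and the 3 with the largest rise in gene body coverage among those whose groups did not overlap were chosen for naming, and of genes within 2 times the length of MCL1 the 5 closest to it. Some items are not reported here. Measures were tested on simulated peaks. Alternatives covered a q-value minimum, equal peak numbers, merged peaks, isoforms, windows, pileup, isolated genes, a replicate block and leaving out each replicate. Differential enrichment and the pausing index need read counts and were not repeated. Scripts ran in Python 3.11.15 with pandas 2.3.3, numpy 2.4.6 and scipy 1.17.1, and figures were drawn in matplotlib 3.10.9.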

Additional observations from a re-analysis of the deposited data

How the results depend on the processing

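Of 400 comparisons of a member's value with an alternative, 351 moved by no more than the spread between replicates, 44 moved by more and 5 whose groups had not overlapped changed sign. Leaving out a replicate cannot move a value by more than this spread, nor turn the sign of groups that do not overlap. Those comparisons could therefore only fall among the 351, and they say nothing about how stable the values are. Of the 360 that started from a difference other than 0, overlapping groups included, 319 kept their sign, 34 turned and 7 became 0. The 5 sign changes between groups that had not overlapped were the BCL2L2 gene body difference with equal numbers of peaks (2.40 percentage points), to the TES (8.46) and between 2 kb past the TSS and the TES (8.09), the CFLAR gene body difference with equal numbers of peaks (0.19) and the BCL2L2 ratio with the canonical isoform (1.5). The count of members with lower gene body coverage, 4, became 2 (BCL2L1 and BAX) with a q-value minimum (−log10 of 5 or more) and with equal numbers of peaks. Lower post-TES coverage, found in 5, became 2 with equal numbers of peaks and 3 among genes at least 3 kb from others, where a wider promoter peak also went from 5 members to 3. A higher fold percentile, found in 1, became 2 with the q-value minimum, 2 with equal numbers of peaks and 0 among all peaks. A higher ratio, found in 2, became 5 with the canonical isoform and 1 (MCL1) with the downstream window from 2 kb to the TES. In that window BAX and BAK1 had no summit in at least 1 CDDD11-8 library, so they had no ratio to count. The MCL1 ratio difference of 0.95 became −0.00108 with pileup (exact permutation p = 1). A pair of alternatives was added after the data were seen: with regions counted up to the next start site 4 members had a wider peak, without MCL1, and with the canonical isoform and pileup the MCL1 difference was 0.86.

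Leaving out each replicate in turn gave 4 to 7 members with lower gene body coverage, 5 to 6 with lower post-TES coverage, 5 to 7 with a wider promoter peak, 1 to 2 with a higher percentile and 2 to 3 with a higher ratio, and an MCL1 ratio difference of 0.05 to 1.85. The gene body count was 7 without vehicle replicate 2 and 7 without CDDD11-8 replicate 1. The lone library left in a group then set the call. The replicate block, which asks that both same-numbered pairs move one way, gave 7, 6, 6, 1 and 2 members in the same order and left the MCL1 ratio difference at 0.95. Outside this block the replicate numbers were not used to pair samples, since the labels do not say whether a number marks a shared passage. Over 9603 genes, the replicate differences in gene body coverage of the 2 treatments correlated at r = −0.07. No shared replicate effect was thus seen in this measure, which cannot show whether same-numbered samples were handled together. With 2 libraries a group, unknown read totals and peaks in place of reads, none of these comparisons could pass a test.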
